A study of Mus musculus with 12 samples.

Results

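The LIF receptor pathway was followed through 9 genes of mouse embryonic stem (ES) cells in which one chromatin or DNA methylation regulator at a time had been knocked down (KD). The genes were *Lifr* and *Il6st*, the receptor chains, *Jak1* and *Stat3*, the kinase and the transcription factor, and *Socs3*, *Pim1*, *Pim3*, *Bcl3* and *Junb*, which are targets of Stat3. They were chosen by name, as genes of one pathway, and were found through the probes whose accession maps to these symbols. All 9 had a probe that passed the filter on dim signal, among 29235 genes tested, and each was well above background on all 12 arrays.

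Leukemia inhibitory factor (LIF) binds a receptor made of Lifr and Il6st (gp130), and the receptor-bound kinase Jak1 then phosphorylates Stat3, which enters the nucleus and binds DNA. In mouse ES cells this signal sustains self-renewal. Socs3 is a Stat3 target that binds the receptor and inhibits it, Pim1 and Pim3 are serine/threonine kinases, Bcl3 is a nuclear IκB-family cofactor of NF-κB, and Junb is an AP-1 transcription factor.

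The arrays were 12 one-colour Agilent expression arrays of E14 cells, an established line of mouse ES cells. There were 2 arrays for each target: *EGFP* (the control KD, against a gene these cells lack), *Dnmt1*, *Tet1*, *Mbd3*, *Mbd2* and *Chd4*. *Dnmt1* encodes the maintenance DNA methyltransferase, *Tet1* an enzyme that oxidises 5-methylcytosine, *Mbd3* and *Mbd2* alternative subunits of the NuRD complex, and *Chd4* its ATPase. The comparisons ask whether these regulators affect mRNA levels in ES cells. All 6 groups received pools of short RNAs made by enzymatic digestion (esiRNAs) with a lipid reagent, and RNA was taken 48 hours later. All were grown in serum and LIF on gelatin without feeder cells, so the cytokine was supplied in every group and a KD was transient and in one cell line. The study calls its expression replicates biological ones, while the labels number them and do not say whether cultures were separate.

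Signals are log2 values of the processed intensity over the 75th percentile of the same array, and a gene was called where limma's Benjamini-Hochberg adjusted p over all 29235 genes was under 0.05. The arrays lay on 3 slides, each scanned once. On slide 1 were the first replicates for *EGFP*, *Mbd2*, *Mbd3* and *Dnmt1*. On slide 2 were the second control array, both arrays for *Tet1* and the first for *Chd4*. On slide 3 were the second replicates for *Chd4*, *Mbd2*, *Mbd3* and *Dnmt1*, with no control array.

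The probes of the targeted genes were read first. *Mbd3* was at 11.9% and 13.9% of its *EGFP* KD mean on the *Mbd3* KD arrays, *Chd4* at 34.3% and 49.6% on the *Chd4* KD arrays, and *Dnmt1* at 32.2% and 19.6% on the *Dnmt1* KD arrays. Probe A_55_P2122997 of *Tet1* read 98.7% and 28.4% of the control on the arrays with the *Tet1* KD label (replicates 1 and 2), and 28.9% on the first array with the *Mbd2* KD label. Probe A_66_P133043 of *Mbd2* read 84.8% and 29.2% on the arrays with the *Mbd2* KD label, and 29.8% on the first array with the *Tet1* KD label. The other *Mbd2* probe, A_55_P2036526, was at 94.7% and 95.1% on the arrays with the *Mbd2* KD label. The first array of each of these groups goes against its label, so every direction for *Tet1* KD and *Mbd2* KD rests on the labels as given. The changes of the members without those 2 arrays are given after the counts over all members. The summed signal of 8 ES cell markers (*Pou5f1*, *Nanog* and *Sox2* among them) ranged from 142 to 191 times the 75th percentile over the 12 arrays, and 0 of 8 were called in *Mbd3* KD or *Chd4* KD. In each of these 2 KDs 7 of the 8 were well above background on both arrays, against 8 of 8 in every other group.

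No member passed the threshold in any of the 5 KDs. Limma called 0 of 9 in *Chd4* KD, where 2.53% of all genes were called, and 0 of 9 in *Mbd3* KD, where 0.322% were. It also called 0 of 9 after knockdown of *Mbd2*, *Tet1* or *Dnmt1*, in each of which 0% of all genes were called. Even *Dnmt1* itself, at -1.99 in *Dnmt1* KD, was not called (limma adjusted p = 0.522 with every probe tested). A count of 0 in these 3 KDs therefore says little about the members. At an unadjusted p under 0.05, limma had 3 of 9 in *Chd4* KD (11.8% of all genes), 2 of 9 in *Mbd3* KD (8.75%), and 1 of 9 in *Mbd2* KD (1.6%). It had 0 of 9 in *Tet1* KD (1.99%) and 0 of 9 in *Dnmt1* KD (3.95%). The closest to the threshold was *Bcl3* in *Chd4* KD, and that call depended on the processing, as given with its values.

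**Figure D1:**
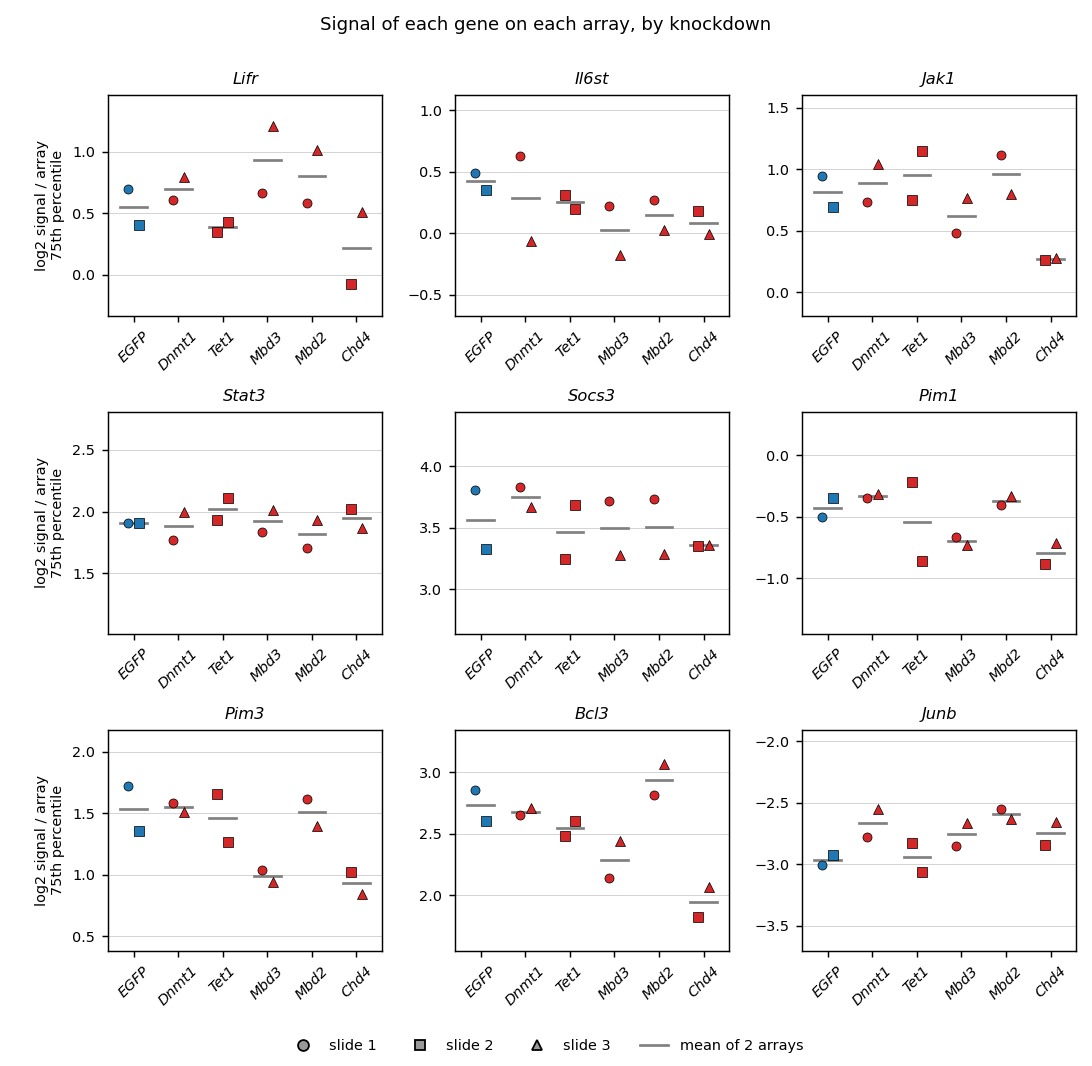
Log2 signal over the array's 75th percentile (y axis, the same 1.8 log2 span in every panel) of 9 genes on each of 12 arrays (points), by the gene knocked down (x axis), with *EGFP* KD in blue, marker shape for the slide and a grey line at the mean of 2 arrays. *Bcl3* and *Pim3* lie lower in *Mbd3* KD and *Chd4* KD than in *EGFP* KD without overlap, while *Stat3* stays between 1.70 and 2.11 on all arrays.

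The receptor chains came first in the pathway and were measured on all arrays. *Lifr* had 3 probes, and the brightest, A_55_P2159259, stood for the gene. Its log2 signal was 0.70 and 0.40 for *EGFP*, 0.61 and 0.79 for *Dnmt1*, 0.35 and 0.43 for *Tet1*, 0.67 and 1.20 for *Mbd3*, 0.58 and 1.02 for *Mbd2*, and -0.08 and 0.51 for *Chd4*. By group mean the order ran from *Mbd3* KD (0.94 ± 0.38, SD, n = 2) down to *Chd4* KD (0.21 ± 0.41, SD, n = 2), and each neighbouring pair of groups in that order differed by less than the standard error of a difference, 0.27. *Chd4* KD and *EGFP* KD overlapped, with a log2 fold change of -0.34 ± 0.27 (SE, limma adjusted p = 0.813). It was -0.04 without *Chd4* KD replicate 1 and -0.63 without *Chd4* KD replicate 2, and -0.19 without *EGFP* KD replicate 1. Against *Mbd3* KD, the change in *Chd4* KD was -0.72 (limma adjusted p = 0.434), and on slide 3, which held one array of each, it was -0.70.

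The 3 *Lifr* probes did not behave alike. In *Chd4* KD against *EGFP* KD they gave -0.34, -0.58 (A_51_P113182) and -0.30 (A_55_P2159264), all below 0 and none called. In *Mbd3* KD they gave 0.39, -0.02 and -0.42, so that neither sign held across the gene. For *Chd4* KD against *Mbd3* KD the probes gave, in the same order, -0.72, -0.56 and 0.12. A_55_P2159264 carries a different transcript accession (NM_001113386) from the other 2 (NM_013584), and whether the probes read different transcripts was not tested. On A_51_P113182, *Chd4* KD replicate 2 stood alone at -1.80, while the other 11 arrays lay between -0.95 and -0.55. On A_55_P2159259 the lower *Chd4* KD array was instead replicate 1, at -0.08 against 0.51 on replicate 2.

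*Il6st*, the signalling chain shared with other cytokines of the interleukin-6 family, was at 0.49 and 0.35 in *EGFP* KD, the highest group mean. It was at 0.22 and -0.17 in *Mbd3* KD and at 0.18 and -0.01 in *Chd4* KD, below both control arrays. In that order the log2 fold changes were -0.40 ± 0.25 (SE, limma adjusted p = 0.788) and -0.34 ± 0.25 (SE, limma adjusted p = 0.787). The gene also followed the slides: the 4 arrays of slide 3 lay between -0.17 and 0.03, below all 8 arrays of slides 1 and 2, which lay between 0.18 and 0.63. Between arrays of one slide, *Il6st* differed from the control by -0.27 in *Mbd3* KD and by -0.17 in *Chd4* KD.

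*Jak1*, the receptor-associated kinase, was at 0.95 and 0.69 in *EGFP* KD and at 0.26 and 0.28 in *Chd4* KD, the lowest values on the 12 arrays. The difference was -0.55 ± 0.21 (SE, limma adjusted p = 0.344), which did not pass the threshold. In *Mbd3* KD the values were 0.48 and 0.77, which overlapped the control. Within a slide, *Jak1* was 0.43 lower than the control in *Chd4* KD and 0.47 lower in *Mbd3* KD on the log2 scale. The highest value, 1.15, was on the array labelled *Tet1* KD replicate 2.

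*Stat3*, the transcription factor itself, had the smallest range over the 12 arrays on the probe that stood for it. Probe A_51_P201480 read 1.90 on both *EGFP* KD arrays, 1.76 and 2.00 for *Dnmt1*, 1.94 and 2.11 for *Tet1*, 1.84 and 2.01 for *Mbd3*, 1.70 and 1.93 for *Mbd2*, and 2.02 and 1.86 for *Chd4*. The log2 fold changes over *EGFP* KD ran from -0.09 in *Mbd2* KD to 0.12 in *Tet1* KD, with a standard error of 0.16. In *Chd4* KD the 95% interval was -0.33 to 0.41 and in *Mbd3* KD -0.35 to 0.39, so changes of *Stat3* mRNA inside these bounds remain possible. The bounds are not a limit of detection with 2 arrays a group. On simulated arrays only 16% of log2 changes of 1 were recovered in *Chd4* KD and 12% in *Mbd3* KD. The second *Stat3* probe, A_55_P1991219, gave 0.18 in *Mbd3* KD and 0.07 in *Chd4* KD. Its largest change was 0.29 in *Tet1* KD (limma adjusted p = 1), with both arrays above both controls. These are mRNA levels, and phosphorylation of Stat3 was not measured on the arrays.

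*Socs3*, the feedback inhibitor of the receptor, was read at 3.80 and 3.32 for *EGFP*, 3.83 and 3.67 for *Dnmt1*, 3.24 and 3.69 for *Tet1*, 3.72 and 3.28 for *Mbd3*, 3.73 and 3.28 for *Mbd2*, and 3.35 and 3.36 for *Chd4*. The groups overlapped and the fold changes over *EGFP* KD lay between -0.21 in *Chd4* KD and 0.19 in *Dnmt1* KD, with a standard error of 0.26. The values also followed the slides: the 4 arrays of slide 1 lay between 3.72 and 3.83, above all 8 others, which lay between 3.24 and 3.69. Against the control of the same slide, *Socs3* differed by 0.03 for *Chd4*, -0.09 for *Mbd3*, -0.07 for *Mbd2*, 0.03 for *Dnmt1*, and -0.08 and 0.36 for the *Tet1* arrays, the last the largest difference within a slide. The 95% interval in *Chd4* KD was -0.81 to 0.40.

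The promoter of *Socs3* is shown because *Socs3* was the only member whose window held a match to a STAT motif. Whether that match is a site known to bind STAT factors was not tested. STAT factors bind the palindrome TTCNNNGAA, which reads the same on both strands. It was searched in the 250 bases upstream of each RefSeq start (assembly GRCm38.p6), and 7.02% of 32851 windows held it. All 9 members matched, with 11 windows, of which 1 held the motif. The *Socs3* window lies at chr11:117969367-117969616 on the minus strand, its motif in capitals starts at -154, and 26 CpG dinucleotides were counted in it. *Bcl3*, the member with the smallest adjusted p, has its window at chr7:19822756-19823005, also on the minus strand, with no match and with 19 CpG dinucleotides, shown in capitals because the knockdowns concern enzymes and readers of CpG methylation. The median of all windows was 6 CpG dinucleotides. A match is a description of letters and not a measured binding site.
Socs3 promoter: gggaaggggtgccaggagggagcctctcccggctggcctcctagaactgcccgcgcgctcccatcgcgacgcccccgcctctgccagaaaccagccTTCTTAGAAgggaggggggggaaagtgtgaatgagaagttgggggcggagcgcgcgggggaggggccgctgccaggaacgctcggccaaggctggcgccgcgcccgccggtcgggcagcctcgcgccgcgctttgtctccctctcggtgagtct
Bcl3 promoter: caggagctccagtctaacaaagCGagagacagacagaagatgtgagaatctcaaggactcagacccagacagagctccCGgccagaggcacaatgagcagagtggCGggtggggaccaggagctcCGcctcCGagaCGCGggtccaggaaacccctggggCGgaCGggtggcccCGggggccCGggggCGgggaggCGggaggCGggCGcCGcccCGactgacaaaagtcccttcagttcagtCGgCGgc

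*Bcl3*, the NF-κB cofactor, had the largest difference of any member. Its log2 signal was 2.85 and 2.61 for *EGFP*, 2.66 and 2.71 for *Dnmt1*, 2.49 and 2.61 for *Tet1*, 2.14 and 2.44 for *Mbd3*, 2.82 and 3.07 for *Mbd2*, and 1.83 and 2.07 for *Chd4*. Both *Chd4* KD arrays were the lowest of the 12, followed by both *Mbd3* KD arrays, and neither group overlapped the control. In *Chd4* KD the level was 0.581 times that of *EGFP* KD, a difference of -0.78 ± 0.18 on the log2 scale (SE, 95% interval -1.20 to -0.37, unadjusted p = 0.00244, limma adjusted p = 0.0767). With the slide as a block it was -0.87 and passed (limma adjusted p = 0.0245), and it also passed with normexp background correction (limma adjusted p = 0.0175). It did not pass with quantile normalization (limma adjusted p = 0.255), with the floor halved (limma adjusted p = 0.123) or with only the 4 arrays compared (limma adjusted p = 0.311). The *Bcl3* call was made in 4 of 26 alternatives. On slide 2 the *Chd4* KD array was 0.78 below its control.

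In *Mbd3* KD, *Bcl3* differed from *EGFP* KD by -0.44 ± 0.18 (SE, limma adjusted p = 0.522). On slide 1 the difference was -0.72, and against the *Mbd2* KD array of the same slide it was -0.68 on slide 1, where that array goes against its label, and -0.63 on slide 3. The fitted change of *Mbd3* KD against *Mbd2* KD was -0.65 (limma adjusted p = 0.324), in a comparison that called 0 of 9 members and 0.277% of all genes, with 2 of 9 members and 5.97% of all genes at an unadjusted p under 0.05. Without the array labelled *Mbd2* KD replicate 1 *Bcl3* was at -0.78 in that comparison, again with 0 members called. *Chd4* KD against *Mbd3* KD gave -0.34 for *Bcl3* (limma adjusted p = 0.686), with 0 of 9 members and 0.971% of all genes called, and 1 of 9 and 9.18% at an unadjusted p under 0.05.

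**Figure D2:**
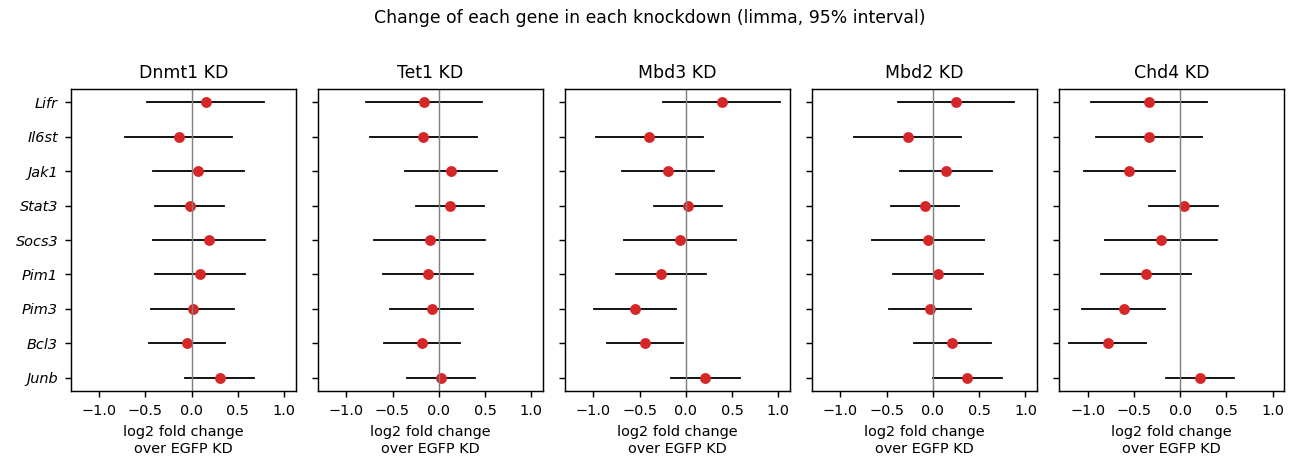
Log2 fold change over *EGFP* KD (x axis) of the 9 genes (rows) in each of 5 KDs (panels), with limma estimates as points and 95% intervals, unadjusted for the number of genes, as lines. In *Chd4* KD the intervals of *Jak1*, *Pim3* and *Bcl3* lie below 0 and in *Mbd3* KD those of *Pim3* and *Bcl3*, and none of these passed adjustment over all genes.

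The kinase gene *Pim3* came next in size. It was at 1.72 and 1.36 for *EGFP*, 1.58 and 1.51 for *Dnmt1*, 1.65 and 1.26 for *Tet1*, 1.03 and 0.94 for *Mbd3*, 1.61 and 1.40 for *Mbd2*, and 1.02 and 0.84 for *Chd4*. The 4 arrays of *Mbd3* KD and *Chd4* KD were the lowest of the 12. Against the control, *Pim3* differed by -0.55 ± 0.19 (SE, limma adjusted p = 0.434) after knockdown of *Mbd3* and by -0.61 ± 0.19 (SE, limma adjusted p = 0.214) after that of *Chd4*. Between arrays of one slide it differed from the control by -0.68 for *Mbd3* and by -0.34 for *Chd4*.

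*Pim1* was dimmer, at -0.51 and -0.35 in *EGFP* KD, -0.66 and -0.73 in *Mbd3* KD, and -0.88 and -0.72 in *Chd4* KD. Both KDs lay below the control without overlap, by -0.27 (limma adjusted p = 0.826) and -0.37 (limma adjusted p = 0.622). *Pim1* separated the 2 arrays labelled *Tet1* KD more than any other group, at -0.22 on replicate 1, the highest of the 12, and -0.86 on replicate 2. Without the array labelled *Tet1* KD replicate 1, the *Tet1* KD difference for *Pim1* went from -0.11 to -0.44, the lowest of the members.

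*Junb* had the dimmest probe that stood for a member, between -3.06 and -2.55, and was well above background on all 12 arrays. It was at -3.01 and -2.92 in *EGFP* KD and at -2.55 and -2.63 in *Mbd2* KD, the highest group mean, a log2 fold change of 0.37 ± 0.16 (SE, unadjusted p = 0.0495, limma adjusted p = 1). The other KDs were between 0.02 and 0.30 higher than the control. Its sign was opposite to that of *Bcl3*, *Pim1* and *Pim3* in *Mbd3* KD and *Chd4* KD. *Junb* also differed between slides: it lay between -2.66 and -2.55 on slide 3, which held no control. It lay between -3.06 and -2.82 on slide 2 and between -3.01 and -2.55 on slide 1. Against the control of the same slide, *Junb* differed by 0.16 in *Mbd3* KD and by 0.08 in *Chd4* KD.

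Counted over all members, 5 of 9 were lower in *Chd4* KD than in *EGFP* KD without overlap, where 19.3% of all genes were, and 1 of 9 was higher, where 19.5% were. In *Mbd3* KD 4 of 9 were lower without overlap (17.2% of all genes) and 1 of 9 was higher (13.4%). In *Tet1* KD 3 of 9 did not overlap the control (35.9% of all genes), in *Mbd2* KD 2 of 9 (23.4%) and in *Dnmt1* KD 1 of 9 (21.5%). The median log2 fold change of the 9 was -0.34 in *Chd4* KD and -0.20 in *Mbd3* KD, against 0 and -0.04 over all genes. For *Mbd2* it was 0.06 against -0.01 over all genes, for *Tet1* -0.10 against 0.09 and for *Dnmt1* 0.07 against -0.02. All 5 comparisons share the same 2 control arrays.

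Without the array labelled *Tet1* KD replicate 1, the members lay between -0.44 and 0.33 in *Tet1* KD, against -0.18 and 0.13 with it. Without the array labelled *Mbd2* KD replicate 1, they lay between -0.40 and 0.47 in *Mbd2* KD, against -0.28 and 0.37 with it. No member was called in either KD with or without these arrays. Their median went from -0.10 to -0.12 in *Tet1* KD and from 0.06 to 0.03 in *Mbd2* KD. In *Tet1* KD 2 of 9 took the other sign, *Socs3* (-0.10 to 0.12) and *Junb* (0.02 to -0.10). In *Mbd2* KD 2 of 9 did, *Jak1* (0.14 to -0.02) and *Stat3* (-0.09 to 0.03), while *Junb* went from 0.37 to 0.33.

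**Figure D3:**
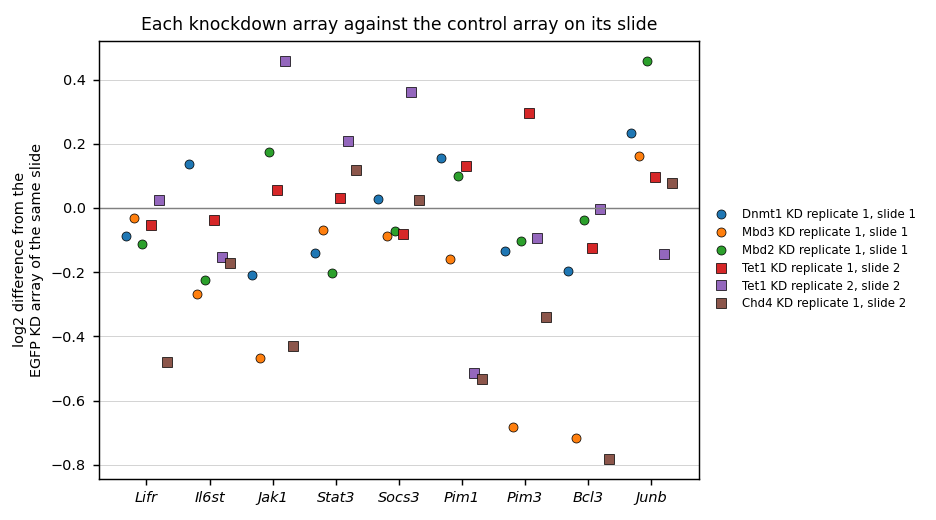
Log2 difference (y axis) of each KD array from the *EGFP* KD array on its own slide, for the 9 genes (x axis), with colour for the array and marker shape for the slide. Slide 3 held no control and is not drawn. *Bcl3* was 0.72 lower in *Mbd3* KD and 0.78 lower in *Chd4* KD, while the 4 other KD arrays lay between -0.20 and 0.00.

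Across the 12 arrays, the members did not rise and fall as one group. Of their 36 pairs, 25 had a Pearson coefficient above 0, with a median of 0.15, a lowest of -0.54 and a highest of 0.81, for *Jak1* and *Bcl3*. *Pim1* and *Pim3* gave 0.76 and *Pim3* and *Bcl3* 0.74. Among all genes, those closest to *Socs3* were *Gfpt1* (0.95), *St7l* (0.92) and *Klhl1* (0.91). *Il6st* gave 0.51, which 8.96% of genes exceeded, and *Stat3* -0.36, which 71.7% exceeded. These coefficients describe 12 points that share slides and groups.

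Around the members, a list of 61 other genes of the pathway was read, of which 57 were tested. Limma called 3 higher and 2 lower in *Chd4* KD, where 2.53% of all genes were called and 16 of 57 had an unadjusted p under 0.05 (11.8% of all genes). It called 0 of 57 in the other 4 KDs. There an unadjusted p under 0.05 was found for 11 of 57 with *Mbd3* (8.75% of all genes), 2 with *Mbd2* (1.6%), 1 with *Tet1* (1.99%) and 3 with *Dnmt1* (3.95%). The median log2 fold change of the list was -0.04 in *Chd4* KD and 0.04 in *Mbd3* KD. The cytokine *Lif* was at the floor of the scale on all 12 arrays, and its probe was well above background on 4 of them, so no change is given for it.

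*Gbx2*, a homeobox gene and Stat3 target in ES cells, had the largest change among the 5 that were called. Its log2 signal was 1.48 and 1.15 in *EGFP* KD, -0.09 and -0.38 in *Mbd3* KD, and -1.34 and -1.36 in *Chd4* KD, and all other arrays lay between 0.78 and 1.52. It fell by 2.66 ± 0.26 (SE) on the log2 scale in *Chd4* KD (limma adjusted p = 0.00354), and the call held in 25 of 26 alternatives. In *Mbd3* KD the difference was -1.55 (limma adjusted p = 0.0661), short of the threshold, and -1.57 on slide 1.

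*Il11ra1*, the interleukin-11 receptor chain that pairs with gp130, was at 0.13 and 0.42 in *EGFP* KD and at -0.71 on both *Chd4* KD arrays, a change of -0.98 ± 0.20 (SE, limma adjusted p = 0.0487). That call held in 12 of 26 alternatives, and it was lost when any array other than those of *Mbd2* KD was left out, with a limma adjusted p from 0.0626 to 0.241.

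**Figure D4:**
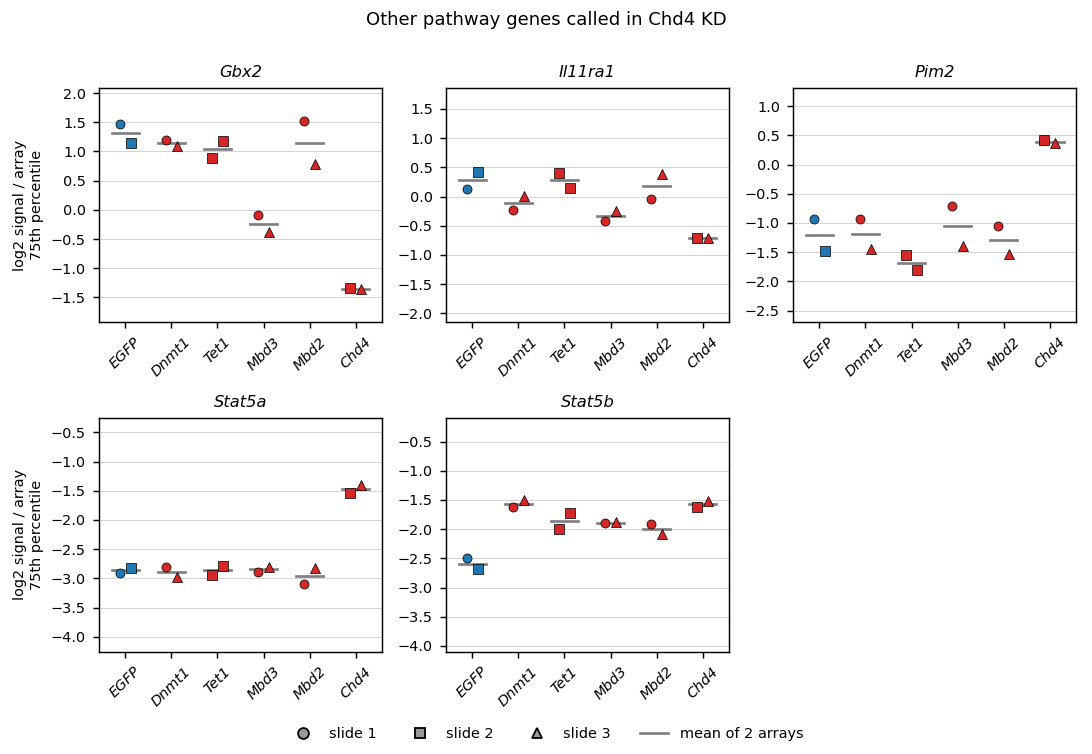
Log2 signal over the array's 75th percentile (y axis, the same 4 log2 span in every panel) of the 5 other pathway genes called in *Chd4* KD, on each of 12 arrays (points), by the gene knocked down (x axis), drawn as in the plot of the members. *Stat5a* and *Pim2* lie higher on both *Chd4* KD arrays than on the other 10, while *Stat5b* is lower on both *EGFP* KD arrays than on the other 10.

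On the same list, 3 genes were higher in *Chd4* KD. *Pim2*, the third Pim kinase, was at -0.94 and -1.48 in *EGFP* KD, at 0.41 and 0.37 in *Chd4* KD and at or below -0.71 on every other array. It rose by 1.60 ± 0.31 (SE, limma adjusted p = 0.0445), whereas *Pim1* and *Pim3* were at -0.37 and -0.61. The *Pim2* call held in 12 of 26 alternatives and was lost when any array other than those of *Mbd3* KD was left out, with a limma adjusted p from 0.0539 to 0.225. *Stat5a*, which encodes another STAT factor, was at -2.90 and -2.82 in *EGFP* KD and at -1.54 and -1.40 in *Chd4* KD. It rose by 1.39 ± 0.15 (SE, limma adjusted p = 0.00503), and it was also higher than in *Mbd3* KD, by 1.37 (limma adjusted p = 0.00955). The *Chd4* KD call of *Stat5a* held in 24 of 26 alternatives, and without *EGFP* KD replicate 1 its limma adjusted p was 0.0503.

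*Stat5b*, the close relative of *Stat5a*, was at -2.49 and -2.69 in *EGFP* KD and at -1.61 and -1.51 in *Chd4* KD, a rise of 1.03 ± 0.15 (SE, limma adjusted p = 0.0158). Its difference from the control was 1.02 for *Dnmt1* (limma adjusted p = 0.489), 0.59 for *Mbd2*, 0.70 for *Mbd3* and 0.73 for *Tet1*, none of them called. Without the array that goes against its label it was 0.51 for *Mbd2* and 0.87 for *Tet1*. Both control arrays were below all 10 KD arrays. In *Chd4* KD against *Mbd3* KD the difference was 0.33 (limma adjusted p = 0.627). The *Stat5b* call held in 19 of 26 alternatives, and without either *EGFP* KD array or either *Chd4* KD array its limma adjusted p was 0.0697 to 0.114.

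Some markers of other cell types were called in *Chd4* KD and *Mbd3* KD, where 2.53% and 0.322% of all genes were called. Of 5 fibroblast markers tested, 2 were called higher in *Chd4* KD (*Col1a1*, by 2.49, and *Thy1*, by 1.42) and 1 in *Mbd3* KD (*Thy1*, by 1.28). The other 3, *Col1a2*, *Dcn* and *Lum*, were below the control in both and not called, and the median of the list was -0.02 in *Chd4* KD and -0.23 in *Mbd3* KD. The summed signal of the 6 listed fibroblast markers (5 well above background on both arrays of each group) was 4.68 to 4.93 in *EGFP* KD, 9.15 to 9.44 in *Mbd3* KD and 9.20 to 11.6 in *Chd4* KD. Of 6 trophectoderm markers 1 was called, *Tfap2c* in *Chd4* KD (by 1.05), where 5 were above the control and 1 below. In *Mbd3* KD 3 were above and 3 below. The median of the list was 0.49 in *Chd4* KD and 0.01 in *Mbd3* KD. Its summed signal was 4.25 to 5.10 in *EGFP* KD, 7.22 to 8.03 in *Mbd3* KD and 9.14 to 9.18 in *Chd4* KD. None of 6 primitive endoderm markers was called in any KD, and their sums were 0.928 to 1.64 in *EGFP* KD and 1.23 to 1.64 in *Chd4* KD. The part of these markers in the values of *Bcl3*, *Pim3* or *Gbx2* was not tested, and in bulk RNA fewer cells of a type and less RNA per cell cannot be told apart.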

How the data were processed

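RNA from E14 ES cells was labelled with Cy3 by the authors and hybridised to 12 one-colour arrays, 2 for each of 6 groups, 48 hours after transfection. Per the file headers, the deposited scanner output holds spot intensity from Agilent Feature Extraction 10.7.1.1 after that software's background correction, with no scaling of one array to another. A second deposited file gives log2 values relative to *EGFP* KD, which tracked the log2 of the ratio of quantile-normalized log2 median signals (r from 0.99914 to 0.99971 over arrays). That scale is compressed (slope 0.143 to 0.160 against differences of log2 signals), and the file, which lists 6 of the 9 members, was used only as an alternative.

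From 43020 spots, between 92 and 306 per array carried an outlier mark and were removed there. Each processed intensity was divided by the 75th percentile of its array (1784 to 2452), set to at least 0.0344, and put on the log2 scale. A probe was kept if it was well above background on each array of some group, 788 probes at the floor on every array were dropped because they have no variance, and the brightest probe stood for its gene. Accessions were named through a GRCm38.p6 gene table, which matched 71.4% of spots. Depending on the array, 76.9% to 95.2% of probes exceeded background, and precision is limited by having 2 arrays a group.

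All 12 arrays entered one linear model with 6 groups in limma (version 3.58.1, R 4.3.3), with Benjamini-Hochberg adjustment over 29235 genes in each of 7 comparisons. On simulated arrays of 29235 genes, of which 200 were changed, these steps recovered 16% of log2 changes of 1 and 54% of log2 changes of 2 in *Chd4* KD, and 12% and 60% in *Mbd3* KD, with 0 in the wrong direction. The members and lists were chosen with earlier results of these data known, and 1 gene of the pathway list is not reported here. The genes named are the members, the targeted genes, pathway genes called in a KD, *Lif*, the 3 genes closest to *Socs3* and called markers. Alternatives were quantile normalization, normexp, other filters, floors and probe rules, the slide or replicate number as a block, only the arrays compared, trended and robust variance, the deposited log2 file, and arrays left out. Promoter sequences are from RefSeq, GRCm38.p6.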

Additional observations from a re-analysis of the deposited data

How the results depend on the processing

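Of 27 alternatives, most left 0 members called in every comparison, among them each of the 12 arrays left out in turn, where the count stayed at 0 to 0 in all 7 comparisons. In *Chd4* KD against *EGFP* KD, 1 member, *Bcl3*, was called with the slide as a block, 1 with normexp and 1 when genes at the floor on every array were kept, and 2 (*Bcl3* and *Lifr*) with quantile normalization of the median signal. That last setting also called 1 (*Bcl3*) in *Mbd3* KD against *EGFP* KD, 1 in *Mbd3* KD against *Mbd2* KD and 1 in *Chd4* KD against *Mbd3* KD. Quantile normalization of the median signal and the floor setting were chosen after seeing the data. Counts over all genes rose too in some of these settings, as given below. They rose in *Chd4* KD with the slide as a block and with quantile normalization of the median signal, and in *Mbd3* KD with the latter. There the added member calls came with more calls over all genes. For the other member calls named above, the count over all genes is not given here, so they cannot be set against it. The deposited table, with 7425 genes tested, called 6 of 6 listed members in *Chd4* KD (56.7% of all its genes), 3 in *Mbd3* KD (46%) and 1 in *Mbd3* KD against *Mbd2* KD (8.82%), in a test against 0 that leaves out the spread of the control. The cause of these differences was not tested. *Bcl3* in *Chd4* KD stayed negative in 26 of 26 alternatives on the log2 scale, from -0.91 to -0.62. In many of them, such as other filters or arrays of other groups left out, the estimate cannot move from -0.78. Those settings do not test its sign. Where all 12 arrays were kept, the limma adjusted p of *Bcl3* ran from 0.00565 to 0.255, and with only the 4 arrays compared it was 0.311. For normexp, 7 spots whose local background was far above that of their array took the array's median background. Of 1662 member values called in neither setting, 106 had another sign than in the fit reported, and the 1662 include settings that cannot change an estimate.

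Counts over all genes moved more. In *Mbd3* KD against *EGFP* KD the 94 calls became 18 with quantile normalization, 188 with normexp, 47 with the floor halved, 39 with the slide as a block, 57 with a trended and robust variance, 228 with genes at the floor kept, 407 with quantile normalization of the median signal, 3412 in the deposited table and 0 without both arrays that go against their labels. In *Chd4* KD the 740 calls became 422 with quantile normalization, 1112 with the slide as a block, 1274 with quantile normalization of the median signal, 315 without both of those arrays and 4213 in the deposited table. Limma on only the 4 arrays compared called 0 genes in every comparison. Leaving out one array at a time gave 8 to 60 calls in *Mbd3* KD and 165 to 701 in *Chd4* KD. The main fit took neither the replicate numbers as pairs nor the slide as a term. Deviations of the replicates were correlated above 0.1 in 10 of 15 pairs of groups (median r 0.38, from -0.04 to 0.77). The main fit thus leaves out a deviation that many groups shared. With the replicate number as a block, 0 members were called in *Chd4* KD, *Bcl3* had a limma adjusted p of 0.0579, and 944 genes were called in *Chd4* KD and 130 in *Mbd3* KD.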
